A study of Mus musculus with 18 samples.

Results

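Transcripts of the actin and tubulin cytoskeleton were described in wild type and Oct4 null mouse embryos at 3 stages before implantation. Members were picked by symbol from the deposited tables. The first class, tubulin with dynein, took alpha-, beta- and gamma-tubulin with its ring proteins, tubulin folding cofactors, cytoplasmic dynein and dynactin. The second class, actin, took cytoplasmic actin, actin-related proteins, the Arp2/3 complex, alpha-actinin, myosin light chains with Myh9, tropomyosin, cofilin, profilin and filament end cappers. Pseudogenes (2 symbols) were left out. Of 8202 genes found in any table, 65 were members, 30 of them tubulin with dynein and 35 actin. The table of E2.5 held 56 members among 7082 genes, that of E3.75 62 among 6648 and that of E4.5 60 among 6545, and 53 members were in all 3. Each table keeps genes that reached about 10.3 (E2.5) or 10.4 CPM (E3.75 and E4.5) in 3 of its 6 libraries, so every count below is over the members that passed this filter. Members missing from a table were Actg1, Myh9, Myl9 and Tbcd at E2.5, Actr5 at E3.75, Actn2 and Tubg1 at E4.5, Actn1 and Actr3b at E2.5 and E3.75, and Dynlt3, Tbce and Myl4 at E2.5 and E4.5.

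The embryos were of the CD1 strain and either wild type (Oct4 +/+) or null (Oct4 -/-) for Oct4, the pluripotency transcription factor encoded by Pou5f1. They were flushed from the reproductive tract at E2.5, E3.75 or E4.5 (embryonic days), and no treatment was given. Each genotype and stage has 3 libraries, 18 in all, and the question of the series is what the loss of Oct4 changes in embryo transcripts. According to the design text, 3 embryos were taken for each genotype at a stage, but it does not say whether a library is 1 embryo, so p-values measure the spread between libraries. How the null allele was made, and whether maternal Oct4 was present, is not given in the labels. RNA was amplified from the poly(A) end, so reads come mostly from near the end of a transcript. Levels are CPM, reads per 1000000 reads of the library's own table, and differences are null minus wild type on the log2(CPM + 1) scale, which understates changes of low genes. The standard error (SE), the 95% interval and the p-value adjusted over all genes of a stage come from limma, and a gene was called when that adjusted p was under 0.05.

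Alpha- and beta-tubulin pair to form the dimers from which microtubules grow, gamma-tubulin rings start that growth, and cytoplasmic dynein with its activator dynactin carries cargo towards microtubule minus ends. Actin monomers, delivered by profilin, form filaments that the Arp2/3 complex branches, cofilin severs, capping proteins stop, tropomyosin coats, alpha-actinin bundles and myosin II pulls on. In the early embryo cortical actin and myosin drive compaction and tension at the blastocyst surface, and microtubules serve division and transport. In embryos without Oct4 a blastocyst forms, but its inner cells do not keep pluripotency and take a trophectoderm fate.

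The libraries held 364936 to 1922432 reads, and the median was higher in null libraries at each stage (E2.5, 1917754 against 916720; E3.75, 1375610 against 576078; E4.5, 1314657 against 543033). Mean Pou5f1 was 1875, 509 and 231 CPM in wild type embryos of the 3 stages and 968, 258 and 111 CPM in null embryos, with no overlap between the genotypes. Whether the null allele alters the measured end of that transcript is not given, so this checks no more than the direction of the labels. In each group the library numbered 3 (C for wild type at E4.5) departed from a mix of the remaining libraries, with the weights that matched it best, by 0.979 to 1.24 times sampling variance, against 1.06 to 2.71 times for the libraries numbered 1 and 2. The labels do not say whether this library holds material of the others. The independent samples may therefore number fewer than the 3 that the SDs, SEs, p-values and comparisons of 3 with 3 libraries rest on. Results are also given for libraries 1 and 2 of each group alone (A and B for wild type at E4.5). The header gives the wild type libraries of E4.5 no numbers, so the letters A, B and C, by column, stand for them. In whole embryos, fewer cells of a type and less RNA per cell cannot be told apart.

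Tubulin isotypes are encoded by similar genes, so the coding ends of 2 beta-tubulins are shown first. The last 60 coding bases before the stop codon are printed 5′ to 3′ from the GENCODE M21 annotation of GRCm38, a newer build than the mm9 of the files, with capitals in Tubb4b at bases that differ from Tubb5 in a gapped alignment of the coding sequences. These bases encode the acidic tail, the stretch in which isotypes differ most.
Tubb5 (chr17:35834985-35835044, minus strand): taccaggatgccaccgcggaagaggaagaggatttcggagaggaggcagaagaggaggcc
Tubb4b (chr2:25222311-25222370, minus strand): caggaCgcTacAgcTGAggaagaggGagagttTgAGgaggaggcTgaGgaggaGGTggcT
Over the whole coding sequence Tubb5 and Tubb4b were 82.3% identical.

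How far a transcript end can be told from other genes was measured as the share of 50-base windows of the last 1000 bases that recur exactly in the transcripts of another gene. Of the 65 members 45 shared no window, 12 shared over 10% and 5 over 50%. The 5 were Tuba1c (79.5%), Tuba1b (77.5%), Tpm3 (64%), Tubb4b (53.4%) and Actr3 (50.1%). Levels of these genes, and to a lesser degree of Myl6 (46.5%), Actg1 (26.4%), Arpc1b (26.1%), Tbca (25.5%), Tubg1 (22.1%), Cfl1 (18.6%) and Actb (15.2%), are uncertain, since the way reads with several matches were counted is not stated in the labels. Tubb5 shared 0.21% of windows, Dynll1 4.31%, and Tuba4a, Arpc5, Capg, Pfn1, Dynll2, Dctn2, Arpc3 and Tubgcp2 none.

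**Figure D1:**
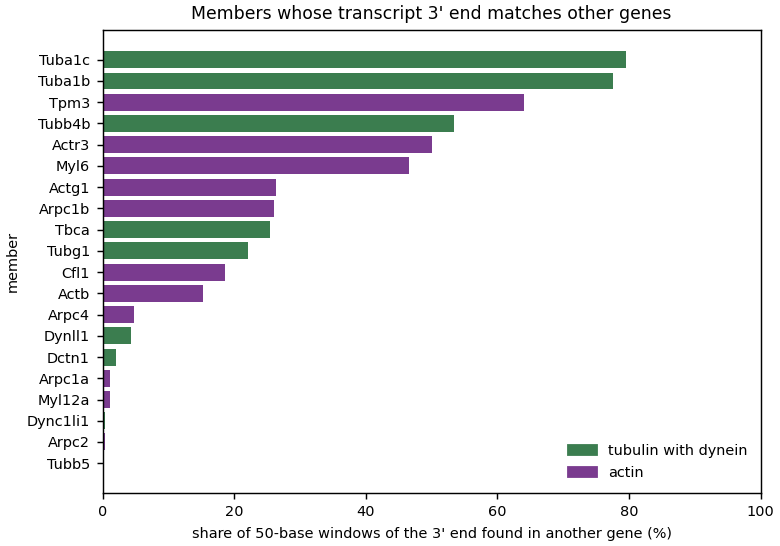
Bars give, for each member that shares any window, the percentage of 50-base windows of its transcript's last 1000 bases found in another gene, with tubulin with dynein in green and actin in purple. Tuba1c and Tuba1b stand at 79.5% and 77.5%, and Tubb5 at 0.21%.

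Most calls were made at E3.75. There 11 of 62 members (17.7%) were called lower in null embryos and 0 higher, beside 8.2% of all genes called, 4.6% lower and 3.6% higher. The 11 were Tubb5, Tuba4a, Tubgcp2, Dynll1, Dynll2 and Dctn2 among 30 tubulin with dynein members, and Arpc5, Arpc1b, Arpc3, Capg and Pfn1 among 32 actin members. The median difference was -0.22 for tubulin with dynein and -0.11 for actin, beside -0.039 for all genes. With TMM or DESeq2 size factors the split of all called genes at this stage moved from 306 of 545 lower to 216 of 503 and 219 of 501, and 9 members were then lower and 1 (Actn2) higher. With libraries 1 and 2 alone 5 members passed (Tubb5, Dynll1, Dynll2, Tubgcp2 and Capg), all lower, beside 2.33% of all genes. Leaving out wild type library 3 left 4 members called (3.14% of all genes), leaving out null library 1 left 5 (3.32%) and leaving out null library 3 left 7 (4.32%).

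At E2.5 1 of 56 members was called, Arpc5, lower in null embryos, beside 0.593% of all genes (0.409% higher and 0.184% lower). With libraries 1 and 2 alone no member passed in limma, beside 0.0141% of all genes. At unadjusted p under 0.05 there were 11 members in limma, a share near the 20.4% of all genes. On the recovered reads edgeR called 3 members (2 lower and 1 higher), beside 2.53% of all genes, and DESeq2 4 (3 lower and 1 higher), beside 4.49% of the genes to which it gave an adjusted p. Without wild type library 1 limma called 7 members, beside 5.51% of all genes, and without wild type library 2 it called 8, beside 10.9%, so the calls over all genes grew as well. With any 1 of the other 4 libraries left out it called 0 members. At E4.5 limma called 0 members and 0 genes (0%), at all libraries and at libraries 1 and 2 alone. There 12 of 60 members were at unadjusted p under 0.05, beside 15% of all genes. edgeR called 1 member (Capg), beside 0.642% of all genes, and DESeq2 4 (Capg, Dynll1, Tpm4 and Myl12a), beside 4.29% of the genes to which it gave an adjusted p. Without null library 1, the shallowest, limma called 3 (Capg, Dynll1 and Myl9), all lower in null embryos, beside 1.83% of all genes.

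**Figure D2:**
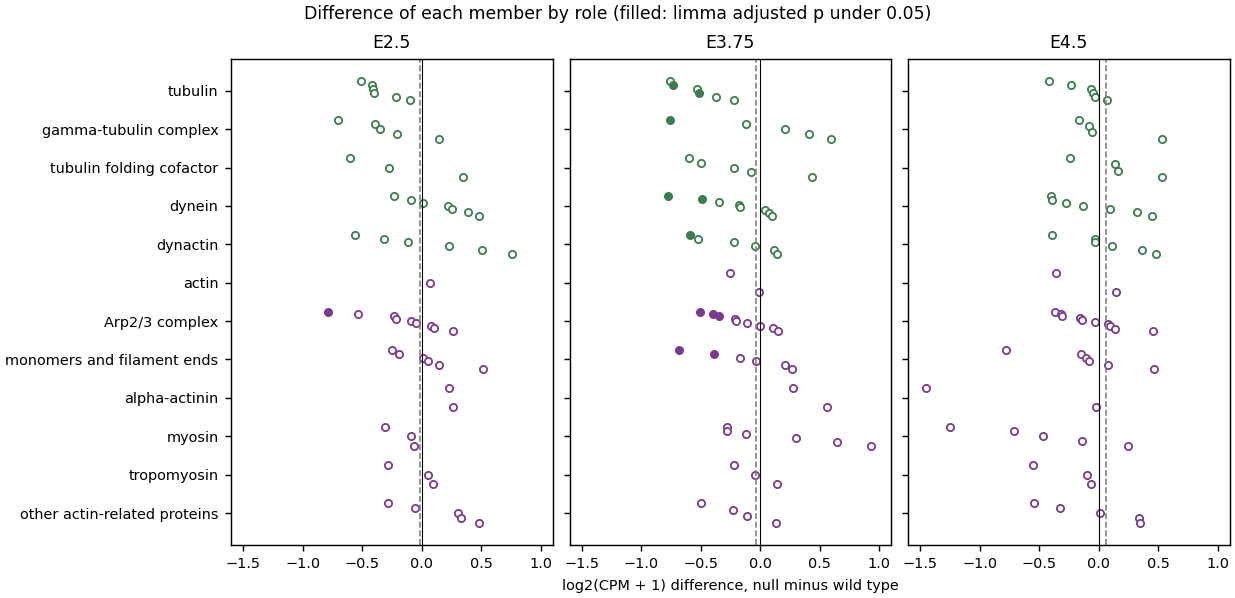
Each point is a member's log2(CPM + 1) difference, null minus wild type, in rows by role and panels by stage, filled where the limma adjusted p was under 0.05. The dashed line is the median of all genes of the stage. Filled points lie left of 0, with 11 at E3.75 and 1 at E2.5, and the 6 tubulins of E3.75 all lie left of the dashed line.

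The 6 tubulin genes measured were all lower on average in null embryos at E2.5 and E3.75, with medians of -0.40 and -0.52, and 5 of 6 at E4.5, with a median of -0.06. Tubb5, the broadly expressed beta-tubulin, had 1375, 1159 and 1399 CPM in the wild type libraries of E3.75 and 714, 854 and 792 CPM in the null libraries. Every null library lay below every wild type library. The means were 1311 ± 132 and 787 ± 70.0 CPM (SD, n = 3), a difference of -0.73 (SE 0.09, limma adjusted p = 1.17e-05), and the call passed in all 17 alternative settings, with an adjusted p of 4.5e-05 in limma on libraries 1 and 2 alone. At E2.5 the libraries of Tubb5 had 332, 301 and 281 in wild type and 225, 236 and 221 CPM in null embryos, again apart, and the difference was -0.42 (SE 0.11, limma adjusted p = 0.0776). At E4.5 they had 996, 1041 and 980.4 CPM in wild type libraries A to C and 976, 961 and 951 CPM in null libraries, apart by a narrow margin, and the difference was -0.06 (SE 0.08, limma adjusted p = 0.731).

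Tuba4a, an alpha-tubulin, had 333, 435 and 462 in wild type and 230.1, 327 and 304 CPM in null libraries of E3.75. All 3 null libraries were below the lowest wild type library, library 1. The means of 409.8 ± 68.0 and 287 ± 50.7 CPM differed by -0.51 (SE 0.13, limma adjusted p = 0.0156). The call did not pass without wild type library 2 or 3, without null library 1, or with libraries 1 and 2 alone (limma adjusted p from 0.0545 to 0.134). At E2.5 the libraries were also apart, at 569, 759 and 691 in wild type and 463, 493 and 455 CPM in null embryos, with a difference of -0.51 (SE 0.11, limma adjusted p = 0.0558) that passed in edgeR (adjusted p = 0.0353) and DESeq2 (adjusted p = 0.00408). At E4.5 the genotypes overlapped, at 168, 192 and 168 CPM and 169.9, 169.6 and 169 CPM.

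Tuba1b had 86.5, 45.8 and 48.6 in wild type and 30.1, 31.3 and 41.0 CPM in null libraries of E3.75, and the groups did not overlap. Its difference of -0.76 (SE 0.24, limma adjusted p = 0.052) missed the threshold, and wild type library 1 stood well above the other wild type libraries. Tuba1c had 156, 121 and 163 CPM and 139.9, 106 and 94.6 CPM, which overlapped, with a difference of -0.37 (95% interval -0.70 to -0.04). Since their transcript ends share most windows with other genes, the levels of these alpha-tubulins cannot be told apart with certainty. The beta-tubulin Tubb4b had 404, 335 and 391 CPM and 335, 304 and 326 CPM, with null library 1 just below the lowest wild type library, and a difference of -0.22 (95% interval -0.44 to -0.01). Tubb6 was spread widely among wild type libraries, 39.5, 81.5 and 57.3 CPM against 50.9, 39.3 and 29.9 CPM in null libraries, with a difference of -0.53 (95% interval -1.04 to -0.02). At E4.5 none of these 4 genes was called, with differences of -0.42 for Tuba1b, -0.03 for Tuba1c, 0.07 for Tubb4b and -0.23 for Tubb6. Tuba1a, Tubb2a, Tubb2b and Tubb3 were not among the 65 members found by symbol in the deposited tables.

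Of the gamma-tubulin complex, Tubgcp2, a core protein that holds gamma-tubulin, was called lower at E3.75. It had 63.9, 57.7 and 52.1 in wild type and 27.7, 29.8 and 46.6 CPM in null libraries, with null library 3 close to the lowest wild type library. The means of 57.9 ± 5.93 and 34.7 ± 10.3 CPM differed by -0.75 (SE 0.22, limma adjusted p = 0.0403), and the call passed in 6 of 16 alternatives, libraries 1 and 2 alone among them (limma adjusted p = 0.0476). Without wild type library 1, 2 or 3 or null library 1 or 2 it did not pass (limma adjusted p from 0.0684 to 0.174), nor with TMM or DESeq2 size factors, in edgeR or in a single fit over 18 libraries (adjusted p from 0.051 to 0.18). Tubgcp3, another core protein, had 41.4, 44.1 and 45.1 in wild type and 55.5, 55.2 and 64.0 CPM in null libraries (0.41 (95% interval 0.01 to 0.81)), with all null libraries above. Gamma-tubulin itself, Tubg1, was likewise higher in each null library, at 34.7, 27.6 and 29.9 CPM against 13.2, 22.9 and 26.0 CPM, with a limma adjusted p of 0.221. Tubgcp4 and Tubgcp6 overlapped between genotypes at each stage. Among the 5 cofactors, which help fold tubulin and pair its chains, none was called at any stage. Tbca, which binds beta-tubulin, had 75.3, 64.5 and 66.5 in wild type and 47.7, 43.2 and 43.8 CPM in null libraries of E2.5, with no overlap and a difference of -0.60 (SE 0.18, limma adjusted p = 0.0996), while at E3.75 its difference was -0.08 (95% interval -0.44 to 0.28). Tbcb, Tbcc, Tbcd and Tbce had differences between -0.60 and 0.43 at E3.75.

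Of 8 dynein genes, the light chains Dynll1 and Dynll2 were called lower at E3.75. These small proteins are shared by dynein and other complexes. Dynll1 had 878, 832 and 849 CPM in wild type libraries of E3.75 and 609, 596 and 619.7 CPM in null libraries. The gap between the genotypes was several times the spread within either. The means of 853 ± 23.4 and 608 ± 11.8 CPM differed by -0.49 (SE 0.08, limma adjusted p = 0.000511), and the call passed in all 17 alternatives, with an adjusted p of 0.0215 in limma on libraries 1 and 2 alone. At E4.5 Dynll1 had 1055, 842 and 972 CPM in wild type libraries A to C and 803, 653 and 713 CPM in null libraries, also without overlap, and a difference of -0.40 (SE 0.11, limma adjusted p = 0.169) that passed without null library 1 (limma adjusted p = 0.0452). At E2.5 the genotypes overlapped, with a difference of -0.23 (95% interval -0.49 to 0.03).

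Dynll2 had 99.7, 88.3 and 85.1 in wild type and 37.0, 63.2 and 62.6 CPM in null libraries of E3.75, with null library 1 the lowest of the 6. Its means of 91.0 ± 7.67 and 54.3 ± 14.97 CPM differed by -0.77 (SE 0.20, limma adjusted p = 0.0171), which did not pass without wild type library 3 or null library 1 (limma adjusted p = 0.0509 and 0.127), in DESeq2 (adjusted p = 0.0521) or with reads thinned to the lowest depth (limma adjusted p = 0.0524). At E2.5 the order was the opposite, 42.5, 46.1 and 48.6 in wild type and 64.6, 67.6 and 60.5 CPM in null libraries, all null libraries above, with a difference of 0.48 (SE 0.18, limma adjusted p = 0.16). At E4.5 the null libraries were again above, at 54.8, 73.8 and 58.8 CPM against 42.4, 54.3 and 52.4 CPM (0.32 (95% interval -0.13 to 0.77)). The motor subunit itself, the heavy chain Dync1h1, had 502, 468 and 503 in wild type and 451, 550.3 and 515 CPM in null libraries of E3.75, overlapping, with a difference of 0.04 (95% interval -0.16 to 0.23). Its differences at E2.5 and E4.5 were 0.01 and 0.09. The intermediate and light intermediate chains Dync1i2, Dync1li1 and Dync1li2 and the light chains Dynlrb1 and Dynlt3 overlapped between genotypes wherever they were measured. Dynlt1a was not among the 65 members found by symbol.

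Of 6 Dctn genes, Dctn2, which encodes the dynamitin subunit of the shoulder, was called lower at E3.75. It had 154, 181 and 222 in wild type and 132, 124 and 109.9 CPM in null libraries. All null libraries were lower, and wild type library 3 was the highest of its group. The means of 186 ± 34.3 and 122 ± 11.1 CPM differed by -0.59 (SE 0.14, limma adjusted p = 0.0128). The call did not pass without wild type library 3, without null library 3, or with libraries 1 and 2 alone (limma adjusted p = 0.114, 0.0804 and 0.443), nor with thinned reads (limma adjusted p = 0.117). At E4.5 the order was reversed, 134, 159 and 158 CPM in wild type libraries A to C and 225, 213 and 193 CPM in null libraries, without overlap, at a difference of 0.48 (SE 0.14, limma adjusted p = 0.171). Dctn5, a pointed-end subunit, had 85.1, 103 and 102 in wild type and 199.7, 128 and 171 CPM in null libraries of E2.5, all null libraries higher, with a difference of 0.76 (SE 0.17, limma adjusted p = 0.0605) that passed in edgeR (adjusted p = 0.0389) and DESeq2 (adjusted p = 0.00648). Dctn3, of the shoulder, was lower in each null library at E2.5 (128, 123 and 112 against 154, 229 and 161 CPM, -0.56 (SE 0.16, limma adjusted p = 0.098)) and overlapped at E3.75 and E4.5. Dctn1, Dctn4 and Dctn6 overlapped at every stage. The actin-related proteins Actr1a, Actr1b and Actr10, which form dynactin's own short filament and its end, were not called at any stage, with differences from -0.23 to 0.13 at E3.75.

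**Figure D3:**
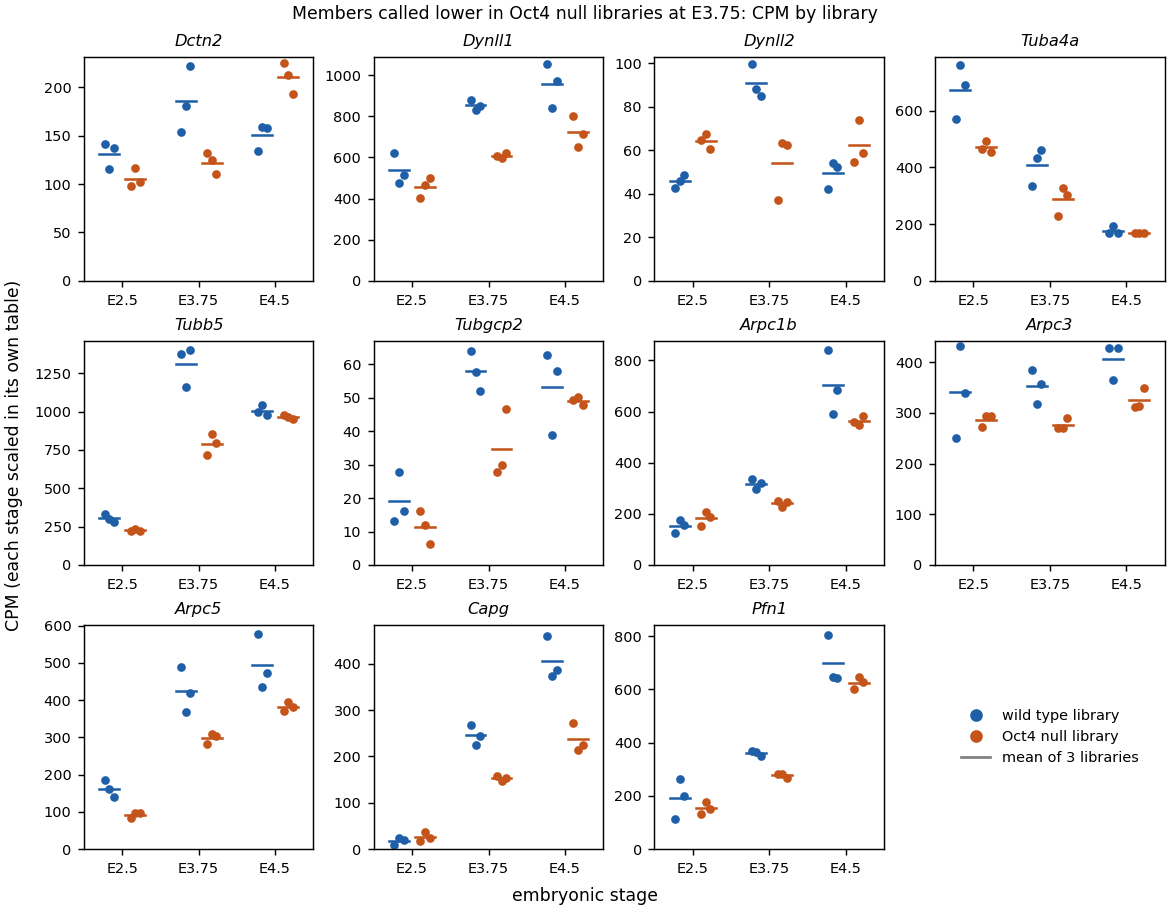
Each panel is a member called lower in null embryos at E3.75, with CPM on the vertical axis, stages on the horizontal axis, a point per library (wild type blue, null orange) and a line at the mean of 3. The null points lie below the wild type points at E3.75 in all 11 panels, and for Dctn2 and Dynll2 they lie above at E4.5.

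Of the actins, Actb, the main cytoplasmic actin of most tissues, had 329, 280.2 and 311 in wild type and 317, 318 and 279.6 CPM in null libraries of E3.75. The genotypes overlapped fully, and the difference was -0.01 (95% interval -0.23 to 0.21). It was 0.07 (95% interval -0.30 to 0.44) at E2.5 and 0.15 (95% interval -0.12 to 0.42) at E4.5. The sign of the small E3.75 value turned positive with TMM or DESeq2 factors. Actg1, the other cytoplasmic actin, was near the lower limit of the tables, at 16.9, 7.64 and 10.4 in wild type and 5.78, 12.4 and 10.4 CPM in null libraries of E3.75, and its wide interval (-0.26 (95% interval -1.17 to 0.66)) leaves its direction unresolved at this depth.

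Of 9 genes of the filament-branching Arp2/3 complex and its variants measured at E3.75, 7 had a negative difference (6 with TMM or DESeq2 factors, where that of Arpc2 turned positive) and 3 were called lower. Of all genes at E3.75, 54.6% had a negative difference and 4.6% were called lower. Arpc5, a small subunit, had 489, 368 and 420.1 in wild type and 282, 309 and 303 CPM in null libraries. The null libraries lay close together, all below the lowest wild type library, library 2. The means of 426 ± 60.4 and 298 ± 14.2 CPM differed by -0.50 (SE 0.11, limma adjusted p = 0.00538), which passed in 16 of 17 alternatives, the exception being libraries 1 and 2 alone (limma adjusted p = 0.0587). At E2.5 Arpc5 had 184, 160.1 and 139 in wild type and 83.0, 98.3 and 97.0 CPM in null libraries, so the null mean was 0.575 times the wild type mean. Its difference there was -0.79 (SE 0.15, limma adjusted p = 0.044), which did not pass without wild type library 3 (limma adjusted p = 0.108), without null library 1, 2 or 3 (limma adjusted p = 0.242, 0.125 and 0.244), or with libraries 1 and 2 alone (limma adjusted p = 0.573). At E4.5 the libraries were again apart, 576, 436 and 473 CPM in wild type libraries A to C and 369.9, 394 and 381 CPM in null libraries, with a difference of -0.37 (SE 0.12, limma adjusted p = 0.204).

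Arpc1b, a WD-repeat subunit, had 337, 298 and 321 in wild type and 249.7, 228 and 248 CPM in null libraries of E3.75, without overlap. Its means of 319 ± 19.4 and 242 ± 11.999 CPM differed by -0.39 (SE 0.11, limma adjusted p = 0.0235). The call did not pass without wild type library 3, without null library 1, 2 or 3, with libraries 1 and 2 alone, in DESeq2 or in a single fit over 18 libraries (adjusted p from 0.0573 to 0.252). At E4.5 Arpc1b had 839.7, 589 and 684 CPM in wild type libraries A to C and 559, 548 and 584 CPM in null libraries, again apart, with library A the highest, and a difference of -0.31 (SE 0.13, limma adjusted p = 0.284). Arpc3 had 384, 317 and 356 in wild type and 269, 270.4 and 289 CPM in null libraries of E3.75. The groups did not overlap, and the difference of -0.34 (SE 0.11, limma adjusted p = 0.045) passed in 4 of 17 alternatives. Without wild type library 1 or 3, without any null library, or with libraries 1 and 2 alone it did not pass (limma adjusted p from 0.106 to 0.307), nor with TMM or DESeq2 size factors, in edgeR, in DESeq2, with thinned reads or in a single fit over 18 libraries (adjusted p from 0.0829 to 0.163). The remaining subunits were not called at E3.75. Arpc2, a core subunit, had 1538, 1679 and 1625 in wild type and 1482, 1763 and 1591 CPM in null libraries, with a difference of -0.0045 (95% interval -0.15 to 0.15), Arpc4 had one of -0.20 (95% interval -0.38 to -0.03), Arpc1a -0.11 (95% interval -0.32 to 0.09) and Arpc5l -0.21 (95% interval -0.44 to 0.02). Actr2 and Actr3, the actin-like subunits from which a branch starts, had differences of 0.11 (95% interval -0.15 to 0.36) and 0.15 (95% interval -0.10 to 0.41). Arpc5l, a relative of Arpc5, had 418, 275 and 287 in wild type and 216, 235 and 212 CPM in null libraries of E2.5, without overlap, at -0.54 (SE 0.15, limma adjusted p = 0.0928).

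Of the proteins of monomers and filament ends, Capg, which caps the fast-growing end of actin filaments, had 267, 225 and 245 in wild type and 157, 147 and 154 CPM in null libraries of E3.75. All null libraries were well below the lowest wild type library. The means of 246 ± 21.03 and 153 ± 5.37 CPM differed by -0.68 (SE 0.12, limma adjusted p = 0.00108), and limma passed it with libraries 1 and 2 alone (adjusted p = 0.029) and in every alternative but a single fit over 18 libraries (adjusted p = 0.106). At E4.5 Capg had 460.4, 374 and 386 CPM in wild type libraries A to C and 271, 215 and 224 CPM in null libraries, with a wide gap between them. Its difference of -0.78 (SE 0.13, limma adjusted p = 0.125) did not pass, although it passed without null library 1 (limma adjusted p = 0.0108), in edgeR (adjusted p = 0.0234) and in DESeq2 (adjusted p = 0.000121). At E2.5 Capg was low, 9.82, 24.2 and 20.3 in wild type and 16.9, 35.9 and 24.5 CPM in null libraries, and the genotypes overlapped.

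Pfn1, or profilin 1, which hands actin monomers to growing ends, had 370.5, 366 and 349 in wild type and 282, 281 and 268 CPM in null libraries of E3.75. The gap between the genotypes was wider than the spread within either. The means of 362 ± 11.4 and 277 ± 8.04 CPM differed by -0.38 (SE 0.10, limma adjusted p = 0.0189), which did not pass without wild type library 3, without null library 1 or 3, with libraries 1 and 2 alone or in a single fit over 18 libraries (limma adjusted p from 0.0555 to 0.259). At E2.5 and E4.5 the genotypes overlapped. Cfl1, the main cofilin, had 701, 733 and 656 in wild type and 589.6, 651 and 618 CPM in null libraries of E3.75, apart by a narrow margin, with a difference of -0.17 (95% interval -0.34 to 0.01). The muscle-type cofilin Cfl2 had one of 0.21 (95% interval -0.22 to 0.64). The capping protein chains Capza2 and Capzb (the second turned positive with TMM or DESeq2 factors) had differences of 0.27 (95% interval -0.06 to 0.60) and -0.04 (95% interval -0.21 to 0.13), and Capza2 was higher in each null library at E3.75 and E4.5, at 104, 119 and 117 CPM against 70.0, 103 and 76.3 CPM at E4.5.

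None of the 12 alpha-actinin, myosin and tropomyosin genes was called at any stage. Both alpha-actinins measured at E3.75, which cross-link filaments, had a positive difference. Actn2 had 56.4, 98.5 and 86.8 in wild type and 123, 102 and 126 CPM in null libraries, all null libraries above, and a difference of 0.56 (SE 0.18, limma adjusted p = 0.0579) that passed in edgeR (adjusted p = 0.0487) and with TMM factors (limma adjusted p = 0.0402). Actn4 had 346, 393 and 328 CPM and 473, 399 and 419 CPM, also without overlap, at 0.27 (SE 0.10, limma adjusted p = 0.104), and null libraries of E2.5 lay above too (0.27 (95% interval 0.02 to 0.51)). Actn1 was in the E4.5 table alone, at 18.4, 11.6 and 11.03 CPM in wild type libraries A to C and 2.74, 6.09 and 4.47 CPM in null libraries, with a difference of -1.45 (SE 0.49, limma adjusted p = 0.21). Actn1 reached the filter level in wild type libraries alone, so its difference cannot be read apart from the filter. The non-muscle myosin light chains Myl12a and Myl12b had differences of -0.27 (SE 0.09, limma adjusted p = 0.0595) and -0.12 (95% interval -0.32 to 0.09) at E3.75. At E4.5 Myl12a had 921, 593 and 708 CPM in wild type libraries A to C and 559, 501 and 524 CPM in null libraries, without overlap, at -0.47 (SE 0.14, limma adjusted p = 0.191).

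Myl9, a regulatory light chain of smooth muscle and non-muscle myosin, had 47.9, 27.1 and 32.2 CPM in wild type libraries A to C of E4.5 and 19.2, 11.4 and 12.7 CPM in null libraries. The null libraries were all lower, at a difference of -1.25 (SE 0.32, limma adjusted p = 0.169) that passed without null library 1 (limma adjusted p = 0.0445). At E3.75 it had 39.5, 6.79 and 10.4 in wild type and 11.6, 13.1 and 10.4 CPM in null libraries, with wild type library 1 standing apart. Myh9, a non-muscle myosin heavy chain, was low at E3.75, 5.64, 5.09 and 13.9 in wild type and 16.2, 15.3 and 13.9 CPM in null libraries, with null library 3 barely above wild type library 3 (0.93 (95% interval 0.04 to 1.82)). Without its null libraries Myh9 would not have passed the filter there, so this difference cannot be read apart from the filter. At E4.5 its difference was -0.71 (95% interval -1.68 to 0.26). Myl6, an essential light chain, and Myl4, an atrial-type chain, had differences of 0.30 (95% interval -0.18 to 0.78) and 0.65 (95% interval -0.17 to 1.46) at E3.75. Of the tropomyosins, Tpm4 had 699.8, 430.4 and 534 CPM in wild type libraries A to C of E4.5 and 359, 380.3 and 371 CPM in null libraries, apart, with library A far above the other libraries, and a difference of -0.55 (SE 0.15, limma adjusted p = 0.169). At E3.75 Tpm4 overlapped between genotypes (0.14 (95% interval -0.09 to 0.37)). Tpm1 and Tpm3 had differences of -0.22 (95% interval -0.40 to -0.03) and -0.04 (95% interval -0.41 to 0.33) at E3.75, where that of Tpm3 turned positive with TMM or DESeq2 factors. Tpm2 was not among the 65 members found by symbol. Actr5 and Actr8, actin-related proteins of chromatin remodellers rather than of the cytoskeleton, were not called at any stage.

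The genotypes were also compared, without a model, by whether their libraries overlapped. At E2.5 the libraries did not overlap for 15 of 56 members (26.8%), 6 with null above and 9 below, beside 27.8% of all genes (13.6% above and 14.1% below). At E3.75 they did not overlap for 27 of 62 members (43.5%), 8 above and 19 below, beside 27.2% of all genes (11.4% above and 15.7% below). At E4.5 they did not overlap for 19 of 60 members (31.7%), 6 above and 13 below, beside 22.2% (12.2% above and 9.99% below). These counts hold Myh9 at E3.75 and Actn1 at E4.5, which passed the filter only through the genotype where they were higher. Of the 53 members in all 3 tables, Tubb5 and Arpc5 had all null libraries below all wild type libraries at each of the 3 stages, beside 0.681% of 5430 genes. No member had all null libraries above at each stage, beside 0.589%.

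Whether the genotype effect itself differed between stages was fitted in limma as an interaction over the 12 libraries of a pair of stages. Between E2.5 and E3.75 1 of 55 members was called, beside 1.54% of 5893 genes. This was Dynll2, whose effect went from 0.48 to -0.77, a difference of -1.25 (SE 0.28, limma adjusted p = 0.0354). Between E3.75 and E4.5 2 of 57 members were called, beside 0.204% of 5882 genes. The effect on Tubb5 went from -0.73 to -0.06, a difference of 0.67 (SE 0.13, limma adjusted p = 0.033). The effect on Dctn2 went from -0.59 to 0.48, a difference of 1.07 (SE 0.21, limma adjusted p = 0.033). Between E2.5 and E4.5 0 of 54 members were called in limma, beside 0.105% of 5728 genes, and 10 were at unadjusted p under 0.05, beside 14.9% of these genes. With TMM or DESeq2 size factors Tubb5 did not pass (limma adjusted p = 0.0657 and 0.0718). None of the 3 passed with libraries 1 and 2 alone (limma adjusted p = 0.564 for Dynll2 and 0.831 for both others). Dynll2 did not pass without wild type library 3 or any null library of E2.5, or without wild type or null library 1 or 3 of E3.75 (limma adjusted p from 0.052 to 0.0902). Tubb5 did not pass without wild type or null library 1 or 3 of E3.75, wild type library C of E4.5 or null library 2 or 3 of E4.5 (limma adjusted p from 0.0556 to 0.147). Dctn2 did not pass without wild type library 3 or any null library of E3.75, wild type library A or C of E4.5, or null library 2 or 3 of E4.5 (limma adjusted p from 0.0614 to 0.147).

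**Figure D4:**
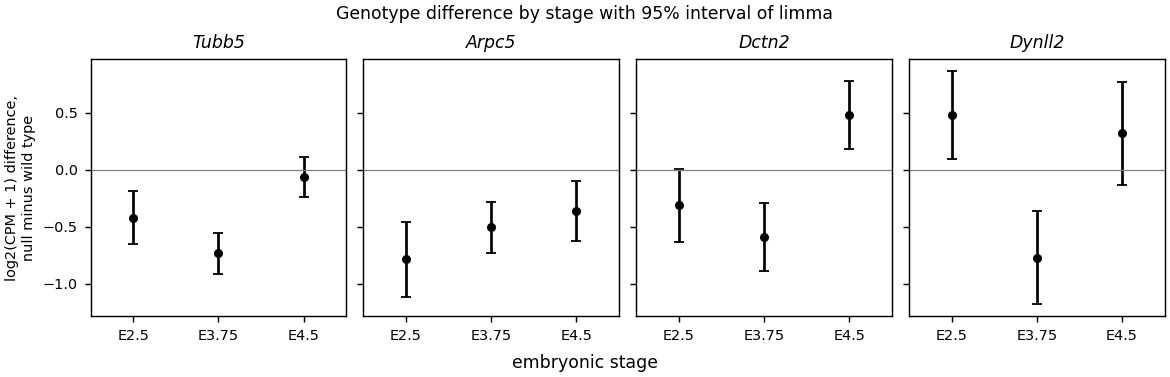
Points give the log2(CPM + 1) difference, null minus wild type, of 4 members at each stage, and bars the 95% interval from limma. Tubb5 is lowest at E3.75 (-0.73) and near 0 at E4.5, Arpc5 is below 0 at each stage, Dctn2 goes from -0.59 to 0.48 between E3.75 and E4.5, and Dynll2 is below 0 at E3.75 and above 0 at E2.5 and E4.5.

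Levels also differed between stages. The tables were scaled separately, so these levels are set side by side without a test. Of the 27 actin members in all 3 tables, the wild type libraries of E4.5 all lay above those of E2.5 for 17 (63.0%) and all below for 3 (11.1%), beside 20.7% and 41.8% of all genes. For the 26 tubulin with dynein members the counts were 10 (38.5%) above and 7 (26.9%) below. In null libraries they were 19 of 27 above and 3 below for actin and 12 of 26 above and 9 below for tubulin with dynein, beside 25.6% and 42.4% of all genes. Mean wild type Capg went from 18.1 to 246 and 407 CPM over the 3 stages and mean null Capg from 25.8 to 153 and 237 CPM. Arpc1b went from 153 to 319 and 704 in wild type and from 183 to 242 and 564 CPM in null embryos. Tubb5 stood at 305, 1311 and 1006 in wild type and at 227, 787 and 963 CPM in null embryos, highest at E3.75 in the former and at E4.5 in the latter. Tuba4a went the other way, 673, 409.8 and 176 in wild type and 470.2, 287 and 169.5 CPM in null embryos.

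Summed over the members measured at a stage, tubulin with dynein took 5301, 5053 and 5489 CPM in the wild type libraries of E3.75 and 4009, 4149 and 4115 CPM in the null libraries. The actin sums there were 10350.1, 9714 and 9747 in wild type and 9157, 9265 and 9151 CPM in null libraries. Both sums were lower in every null library. Abundant members weigh most in a sum, such as Tubb5 (means of 1311 and 787 CPM) and Dynll1 (853 and 608 CPM). The difference was positive for 9 of 30 tubulin with dynein members and 11 of 32 actin members, so the sums do not describe every member. At E2.5 the tubulin with dynein sums were 3698, 3939.9 and 3785 in wild type and 3198, 3392 and 3323 CPM in null libraries, while the actin sums overlapped (4795 to 5516 against 4779 to 4846 CPM). At E4.5 the tubulin with dynein sums overlapped (4365 to 4504 against 4169 to 4417 CPM), and the actin sums were 13121, 11504 and 11969.8 CPM in wild type libraries A to C and 10859, 10924.5 and 10889 CPM in null libraries.

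**Figure D5:**
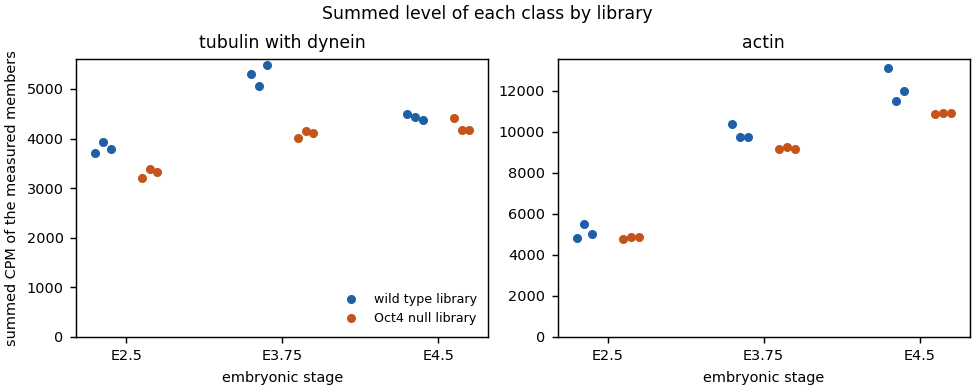
Points give the summed CPM of the measured members of each class in each library, wild type in blue and null in orange, with each stage scaled in its own table. Null libraries lie below wild type libraries for tubulin with dynein at E2.5 and E3.75, and for actin at E3.75 and E4.5.

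Beside the members, 3 lists of other cytoskeleton genes were read, with the same limma fit. In the list of other actin binding and assembly proteins 47 of 56 genes were measured at E3.75, 8 were called lower and 2 higher, beside 4.6% and 3.6% of all genes. The median difference was -0.17, beside -0.039 for all genes, and 4 of the 47 passed with libraries 1 and 2 alone, beside 2.33% of all genes. The lowest p-values were those of Cnn3, a calponin that binds filaments, with 1244 ± 72.2 in wild type and 1669 ± 7.94 CPM in null embryos (0.43 (SE 0.07, limma adjusted p = 0.000492)), and Lcp1, the bundler L-plastin, with 601 ± 59.0 and 407 ± 58.9 CPM (-0.57 (SE 0.11, limma adjusted p = 0.00166)). Tmsb4x, which holds actin monomers, had 566 ± 273 and 266 ± 21.8 CPM (-0.98 (SE 0.19, limma adjusted p = 0.00253)), with a wide spread among wild type libraries. Dstn, or destrin, a relative of cofilin, had 386 ± 83.5 and 246 ± 2.51 CPM (-0.62 (SE 0.13, limma adjusted p = 0.00317)). The microtubule motors and associated proteins (29 measured) and the chaperonin and prefoldin genes that fold actin and tubulin (16) had 0 calls in limma at E3.75, with medians of -0.03 and -0.01. Camsap3, of the first, had a limma adjusted p of 0.116, and the smallest of the second were those of Tcp1 and Cct7 (limma adjusted p = 0.0539 and 0.138). At E2.5 and E4.5 none of these 3 lists had a call in limma. The smallest limma adjusted p-values at E2.5 were those of Ndel1 and Kif20a (0.0558 and 0.057), Msn and Coro1c (0.0859 and 0.115) and Cct4 and Cct7 (0.124 and 0.149). At E4.5 the smallest limma adjusted p-values were those of Dstn and Msn (0.126 and 0.161), Nde1 and Kif20a (0.282 and 0.404) and Pfdn5 and Cct5 (0.345 and 0.362).

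Markers of the cell types in or around the embryo moved at E3.75 as well. Of 8 measured epiblast markers 5 were called lower and 1 higher (all genes, 4.6% and 3.6%), with sums of 974 to 1181 in wild type and 945 to 985 CPM in null libraries. Of 11 primitive endoderm markers 6 were lower and 2 higher (1451 to 1615 against 1575 to 1709 CPM), and of 14 trophectoderm markers 1 was lower and 1 higher (10354.6 to 11429.5 against 9003 to 10335 CPM). Of 3 maternal blood markers 2 were higher (115 to 177 against 176 to 474 CPM), and of 3 oocyte markers 2 were lower (2467 to 2667 against 1897 to 2069.99 CPM). No measured marker was listed at 0 in a library, and none of the maternal muscle and stroma markers, such as Acta2, Des and Tagln, was in the E3.75 table. The part of these cell types in the lower tubulin and actin transcripts was not tested.

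The sequence upstream of the start site was read for the members that the results turn on. Tubb5 and Arpc5, lower in each null library at each stage, and Dynll1 and Capg, which passed at E3.75 also with libraries 1 and 2 alone, are shown as the 250 bases before the RefSeq start in GRCm38.p6, 5′ to 3′ on the gene's strand. Capitals mark CCAAT or GGGCGG on either strand.
Tubb5 (chr17:35838302-35838551, minus strand): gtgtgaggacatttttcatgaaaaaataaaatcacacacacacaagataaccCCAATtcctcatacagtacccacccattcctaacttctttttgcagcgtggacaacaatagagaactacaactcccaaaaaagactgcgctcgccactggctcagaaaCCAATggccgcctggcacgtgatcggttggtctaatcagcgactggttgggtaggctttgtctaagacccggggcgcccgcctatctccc
Arpc5 (chr1:152766292-152766541, plus strand): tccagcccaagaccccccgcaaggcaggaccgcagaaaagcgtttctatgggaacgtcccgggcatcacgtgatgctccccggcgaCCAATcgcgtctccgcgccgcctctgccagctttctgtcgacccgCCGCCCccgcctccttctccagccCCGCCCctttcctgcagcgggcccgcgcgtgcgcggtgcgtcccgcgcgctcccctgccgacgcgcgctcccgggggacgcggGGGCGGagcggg
Dynll1 (chr5:115300991-115301240, minus strand): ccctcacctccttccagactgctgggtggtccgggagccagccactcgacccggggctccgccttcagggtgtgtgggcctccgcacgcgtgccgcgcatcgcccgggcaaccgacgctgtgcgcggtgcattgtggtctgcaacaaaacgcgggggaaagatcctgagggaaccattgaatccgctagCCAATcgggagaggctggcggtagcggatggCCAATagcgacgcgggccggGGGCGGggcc
Capg (chr6:72549397-72549646, plus strand): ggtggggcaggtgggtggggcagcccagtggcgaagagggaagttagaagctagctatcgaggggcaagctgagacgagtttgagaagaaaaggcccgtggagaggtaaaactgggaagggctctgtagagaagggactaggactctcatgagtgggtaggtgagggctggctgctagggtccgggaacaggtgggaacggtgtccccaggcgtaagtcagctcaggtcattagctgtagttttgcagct
Such a promoter entry was found for 53 of 65 members (58 starts) and 9 of the 11 genes called at E3.75. Dynll2 and Tubgcp2, which also passed with libraries 1 and 2 alone, had no entry and were not read. The searched words were CCAAT, the CCAAT box, in 34.5% of the 58 member starts beside 33.8% of 32851 mouse starts, GGGCGG, the GC box, in 65.5% beside 32.7%, and TATAAA in 1.72% beside 12.4%. The octamer ATGCAAAT, the word that Oct factors bind, was in 0 of 58 beside 1.6%. The CArG box, bound by serum response factor at actin genes, was in 4 of 58 (Actg1, Arpc4, Myl6 and Myl9) beside 1.47%, and in 0 of the 9 called genes. The 32851 mouse starts were not limited to genes that passed the CPM filter, as the members were, so these shares compare unlike sets. A match is a description of letters, and windows of 250 bases leave distant elements unread.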

How the data were processed

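Polyadenylated RNA of whole embryos was primed with oligo(dT) and amplified near the poly(A) tail, per the labels' protocols. The authors deposited CPM values in 1 table per stage, and edgeR and the mm9 build are named in the submitters' processing notes. The labels do not state the aligner, annotation, counting rule or use of strand (not given in the sources used here), so reads of overlapping genes may be mixed. Each deposited column sums to 1000000 CPM over its own table. Symbols were found for 6968 of 7082, 6546 of 6648 and 6443 of 6545 gene identifiers.

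CPM values were whole multiples of 1 read for 121650 of 121650 values (100%, within 0.01 reads), which gave depths of 364936 to 1922432 reads and the reads used by edgeR and DESeq2. The limma intervals rest on the spread between libraries, and counting error in amplified RNA was not estimated apart from it.

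limma 3.58.1 in R 4.3.3 was fitted to log2(CPM + 1) of each stage's 6 libraries, with a trend in the variance, two-sided, with Benjamini-Hochberg adjustment over all genes of the table (threshold 0.05). Differences between stages were an interaction of genotype and stage over 12 libraries. Alternatives were pseudocounts of 0.1 and 5, a mean of at least 10 CPM, TMM and DESeq2 size factors, each library left out, libraries 1 and 2 alone, edgeR 4.0.16, DESeq2 1.42.0, a replicate block, 1 fit over 18 libraries, and, added after seeing the data, reads thinned to the lowest depth. DESeq2 left the adjusted p undefined for 1785, 3738 and 3934 genes of the 3 stages. The limma fit alone was tried on simulated reads of independent libraries, a setting that does not imitate libraries that may share material. The outcome is not reported here.

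Members, roles and lists were chosen with earlier results of these data known. Named genes were Pou5f1, all called members, the smallest p-values of each class and stage, and a core set, with the smallest p-values of each list. Other members and values were named after they were seen. Promoters are RefSeq's (GRCm38.p6), and in 51 of 58 entries the bases just after the start lay in a transcript of the gene. Some genes, 1 further list and some sequences are not reported here.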

Additional observations from a re-analysis of the deposited data

Results flagged for a closer look

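The effect of genotype was called different between stages for 3 members by a test of the difference itself, limma's interaction of genotype and stage. Between E2.5 and E3.75 it was 1 of 55 members, a share near the 1.54% of all genes. Between E3.75 and E4.5 it was 2 of 57, beside 0.204% of all genes. Each of the 3 calls was lost when certain single libraries were left out. The difference null minus wild type of Dynll2, a dynein light chain, was lower at E3.75 than at E2.5 by 1.25 on the log2 scale (a change of -1.25, SE 0.28, limma adjusted p = 0.0354). All null libraries were above wild type at E2.5 and below at E3.75. The difference of Tubb5, a beta-tubulin, was higher at E4.5 than at E3.75, by 0.67 (SE 0.13, limma adjusted p = 0.0330). The null libraries were below wild type at both stages. With TMM or DESeq2 size factors this difference did not pass (limma adjusted p = 0.0657 and 0.0718). The difference of Dctn2, the dynactin subunit dynamitin, was higher at E4.5 than at E3.75, by 1.07 (SE 0.21, limma adjusted p = 0.0330). All null libraries were below wild type at E3.75 and above at E4.5. With libraries 1 and 2 of each group alone the limma adjusted p was 0.564 for Dynll2 and 0.831 for the other members, and the cause of these differences was not tested.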

How the results depend on the processing

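The 11 members called at E3.75 were lower in null embryos in every alternative run. All 11 were picked as lower, with every null library below every wild type library. Leaving out libraries or changing the pseudocount therefore could not turn the sign, and this is no check of the direction. Of members called in limma, tubulin with dynein numbered 0 at E2.5, and 1 with TMM factors, DESeq2 size factors or thinned reads, 2 with edgeR or DESeq2, 3 in 1 fit over 18 libraries and 0 to 6 with a library left out. Actin numbered 1 at E2.5, and 0 with libraries 1 and 2 alone or with the replicate block, 2 with DESeq2 or the fit over 18 libraries and 0 to 3 with a library left out. At E3.75 the 6 tubulin with dynein calls became 2 to 7 with a library left out. The 5 actin calls became 1 with libraries 1 and 2 alone or the fit over 18 libraries, 3 with DESeq2 and 2 to 8 with a library left out. At E4.5 the 0 calls of tubulin with dynein became 1 with DESeq2 or the fit over 18 libraries and 0 to 1 with a library left out, and those of actin 1 with edgeR, 3 with DESeq2, 2 in the fit over 18 libraries and 0 to 2 with a library left out. Differences between stages numbered 1 for E2.5 to E3.75, and 0 with libraries 1 and 2 alone and 0 to 4 with a library left out. For E3.75 to E4.5 they numbered 2, and 1 with TMM or DESeq2 factors (Tubb5 was lost), 0 with libraries 1 and 2 alone and 0 to 3 with a library left out. For E2.5 to E4.5 they numbered 0, and 0 to 1 with a library left out. Over all genes these differences numbered 91 for E2.5 to E3.75, 12 for E3.75 to E4.5 and 6 for E2.5 to E4.5, with all libraries. Their counts over all genes in the other settings are not given here, so the ranges for members cannot be set beside them. The causes were not tested. The fit over 18 libraries tested 5430 genes in place of each stage's own table.

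Over all genes, the 42 calls of E2.5 became 99 with TMM factors, 93 with DESeq2 size factors, 179 with edgeR, 238 with DESeq2, 65 with thinned reads, 139 in the fit over 18 libraries, 1 with libraries 1 and 2 alone and 1 to 773 with a library left out. The 545 of E3.75 became 307 with DESeq2, 155 with libraries 1 and 2 alone, 213 in the fit over 18 libraries and 209 to 652 with a library left out. The 0 of E4.5 became 42 with edgeR, 112 with DESeq2, 221 in the fit over 18 libraries and, with null library 1 left out, 120.

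With the replicate block, which joins libraries of the same number, Arpc5 at E2.5 (limma adjusted p = 0.0821), and Arpc3 and Tubgcp2 at E3.75 (limma adjusted p = 0.0561 and 0.0551), no longer passed. Members called then numbered 0 at E2.5 and 9 at E3.75, and all genes 30 and 438. By the planned design the numbers were not taken as pairs. Libraries of the same number showed correlated deviations above 0.1 in 1 of 6 pairs, and with so few libraries this cannot exclude a pairing. No paired analysis was possible at E4.5 because its wild type columns carry no numbers. Depth limits the low genes, such as Actg1 and Myh9, which had 2 to 27 reads in a library at E3.75 and E4.5. With TMM factors the sign of Tpm3, Dctn3, Actb, Capzb and Arpc2 at E3.75 and of Actr1a at E4.5 turned, all of them members that were not called.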
